A study of Rattus norvegicus with 24 samples.

Results

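Axon guidance ligands and receptors were followed in the brains of rat pups at 2 ages, in 2 brain regions and in 2 dosing groups. The members are the probe sets whose platform annotation gives 1 gene symbol belonging to the semaphorins (Sema), plexins (Plxn), neuropilins (Nrp1, Nrp2), Eph receptors and ephrins (Epha, Ephb, Efna, Efnb), slits and robos, netrins and their receptors (Ntn, Unc5, Dcc), the contactins Cntn1 to Cntn6, and Crmp1. Genes named Slitrk were left out. The rule took 64 probe sets of 51 genes, out of 15866 probe sets of 10411 named genes on the array. It reads the symbol only, so it also took Unc50 and Unc5cl, 2 genes that share the letters but are not netrin receptors. A probe set is a group of short oligonucleotides that report 1 transcript, and its value is a log2 level. Levels of different probe sets cannot be set against each other.

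The animals were Long-Evans rats. Dosed dams were given Aroclor 1254, a polychlorinated biphenyl mixture once sold for industrial use, by gavage in corn oil. The dose was 6 mg/kg per day from gestation day 6, with dosing planned to end at postnatal day 21. Undosed dams were given 0 mg/kg per day. Cerebellum and hippocampus were taken at postnatal day (PND) 7 and PND14 from 1 male pup per litter at each age, which gives 8 groups of 3 arrays. The undosed pups came from dams 1, 7 and 13 and the dosed pups from dams 12, 15 and 18, so each dosing group holds 3 litters. The study asked how exposure to the mixture affects gene expression in the developing brain.

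Growing axons find their way by reading attractive and repulsive proteins in their surroundings. Semaphorins signal through plexins, with neuropilins as co-receptors for the secreted class; ephrins are membrane-bound ligands of the Eph receptor tyrosine kinases; slits repel through robos; and netrins act through Dcc and the Unc5 receptors. Contactins are membrane-anchored adhesion proteins of axons, and Crmp1 is a cytoplasmic protein that relays semaphorin signals to the cytoskeleton. In the first postnatal weeks of the rat, cerebellar granule cells divide, migrate and send out their parallel fibres, while hippocampal pathways are extending and refining their connections.

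One array, undosed cerebellum at PND14 from dam 13, was left out: its median was 7.91 against 7.42 to 7.48 on the 23 arrays used, and it correlated with them at r = 0.623 to 0.660. That group therefore has 2 arrays, from dams 1 and 7. Xist, the RNA of the inactive X chromosome in females, read 9.07 to 10.7 on 4 arrays labelled male and 3.99 to 4.27 on the other 19. The 4 arrays are both tissues of dam 1 at PND14 and both tissues of dam 13 at PND7, all undosed, and counts are given with and without them. The mean log2 level of 8 Purkinje cell markers was 9.65 to 10.9 in cerebellum and 7.43 to 7.87 in hippocampus. Of 4 measured hippocampal neuron markers, Prox1, Lhx2 and Camk2a had higher means in every hippocampal group than in any cerebellar group, whereas Neurod2 was higher in cerebellum (9.20 to 9.60 against 8.32 to 8.55). These are whole-tissue samples, in which fewer cells of a type and less RNA per cell cannot be told apart.

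Of the 64 member probe sets, 40 (36 genes) passed the filter on low values, which asked for a level above the 40th percentile of the array (6.89) on at least 3 arrays. The families passed unequally. Plexins and neuropilins passed with 11 of 12 probe sets, contactins with 5 of 6, semaphorins with 10 of 15, Eph receptors with 5 of 10, netrins and their receptors with 3 of 7, slits and robos with 2 of 5, ephrins with 1 of 6, and Crmp1, Unc50 and Unc5cl with their single probe sets. The 15 genes without a passing probe set were Cntn5, Dcc, Efna1, Efnb1, Epha10, Epha2, Epha3, Epha8, Nrp2, Ntng1, Robo2, Sema3a, Sema3b, Slit1 and Slit2. Group means of the probe sets that did not pass ran from 4.13 to 6.87, so the netrin receptor Dcc and the secreted repellents Sema3a, Slit1 and Slit2 were not followed further in the filtered tests.

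**Figure D1:**
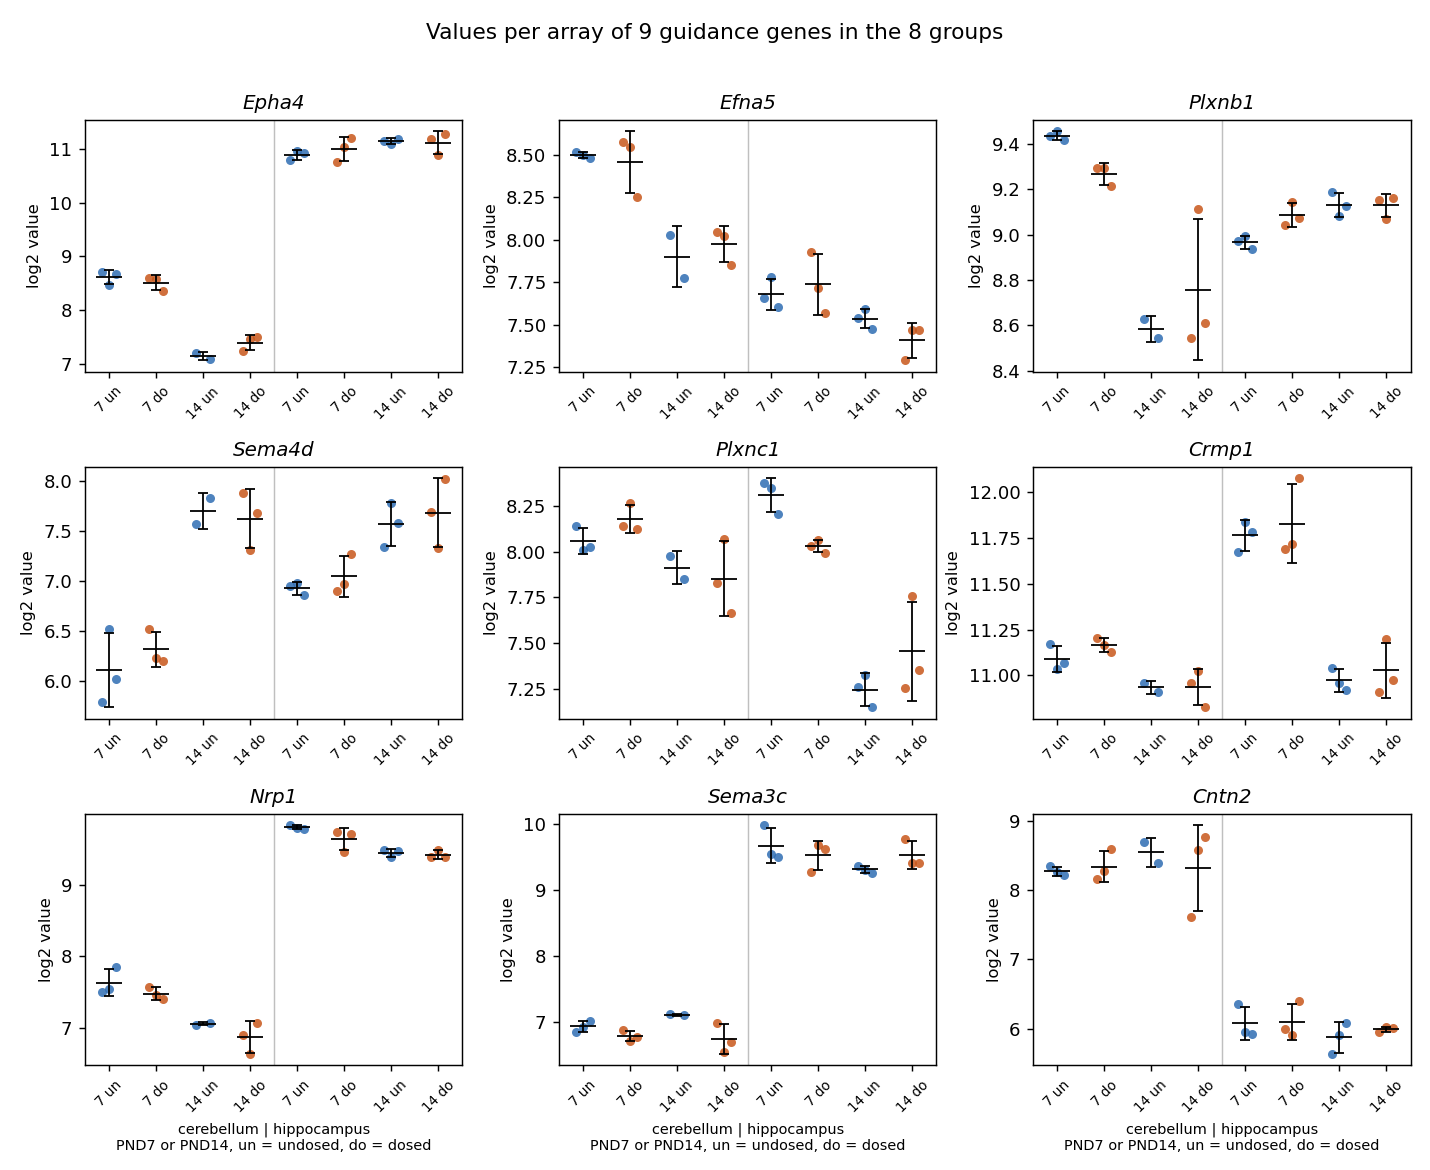
Log2 level of 9 member genes (1 panel each, the probe set of highest mean) on every array, by tissue, age and dosing group; points are arrays, blue for undosed and orange for dosed pups, and bars are the mean ± SD. Epha4 at PND14 sits between 7.09 and 7.49 in cerebellum and between 10.88 and 11.27 in hippocampus.

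Between PND7 and PND14 the repulsive receptor Epha4, the ephrin Efna5, the plexins Plxnb1 and Plxnb2 and the co-receptor Nrp1 fell in undosed cerebellum, and Sema4d, Cntn1 and the netrin receptor Unc5b rose. Of the 40 member probe sets tested, 5 rose (12.5%) and 9 fell (22.5%) at an adjusted p under 0.05 (limma, Benjamini-Hochberg over all 10330 probe sets tested). Among all probe sets tested, 15.1% rose and 17.3% fell. Of the 40, 6 reached the filter level at 1 age only; counted without the filter, 14 of 64 were called (21.9%), against 22.9% of all probe sets. The median size of the change was 0.19 for the members and 0.19 for all probe sets, and the median change itself was -0.10 and -0.03. The arrays of the 2 ages did not overlap for 30 of the 40, and the share over all probe sets is not given.

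Epha4, which binds ephrins of both classes, had the largest fall. Its probe set 1375729_at read 8.71, 8.46 and 8.67 in undosed cerebellum at PND7 and 7.19 and 7.09 at PND14. The 2 ages did not overlap, and the log2 change was -1.47 ± 0.129 (SE; adjusted p = 4.08e-08, limma). The second Epha4 probe set, 1390638_at, gave a change of -1.41 ± 0.0813, and the pair correlated at r = 0.997 over the 23 arrays. The ligand Efna5 read 8.52, 8.50 and 8.48 at PND7 and 8.03 and 7.77 at PND14, a change of -0.60 ± 0.111 (adjusted p = 0.000305, limma). The other Efna5 probe set, 1369594_at, did not pass the filter and was nearly level, with means of 5.39 and 5.35. Ephb4, the receptor of ephrin-B2, fell by less: its levels were 6.71, 6.95 and 6.92 and then 6.54 and 6.51 (change -0.34 ± 0.125, adjusted p = 0.0448, limma). It passed the filter on 3 arrays alone, all of cerebellum at PND7, so the filter favoured its fall.

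The B-class plexins, receptors of class 4 semaphorins, fell. Plxnb1 read 9.44, 9.45 and 9.42 at PND7 and 8.63 and 8.55 at PND14, a change of -0.85 ± 0.109 (adjusted p = 6.03e-06, limma). Plxnb2, known from granule cell precursors, read 11.62, 11.51 and 11.33 and then 10.81 and 10.93, a change of -0.62 ± 0.116 (adjusted p = 0.000337, limma). The ages did not overlap for either gene. Sema4d, a transmembrane ligand of Plxnb1, moved the other way: it read 5.79, 6.51 and 6.02 at PND7 and 7.57 and 7.83 at PND14, a rise of 1.59 ± 0.206 on the log2 scale (adjusted p = 6.54e-06, limma). Its PND7 levels lie below the filter level of 6.89.

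Among the other plexins and the co-receptors the signs were mixed. Nrp1 (1370570_at) went from 7.51, 7.54 and 7.85 to 7.04 and 7.07 (change -0.58 ± 0.114), while its second probe set, 1373577_at, read between 6.05 and 6.30 and was not called (-0.11 ± 0.205). Plxnd1, a receptor of Sema3e, went from 7.00, 6.93 and 6.83 to 6.53 and 6.57 (change -0.37 ± 0.095). Plxnd1 and the first Nrp1 probe set fell, whereas the A-class plexins Plxna1 and Plxna2 rose. Plxna1 (1374453_at) went from 8.68, 8.69 and 8.60 to 9.09 and 9.26 (change 0.52 ± 0.159, adjusted p = 0.0153, limma). The other Plxna1 probe set, 1375482_at, had a change of -0.06 ± 0.108 and was not called, so the pair disagree in cerebellum; over all 23 arrays they correlated at r = 0.659. Plxna2 went from 8.04, 7.99 and 8.02 to 8.23 and 8.30 (change 0.25 ± 0.0818).

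Cntn1, an adhesion protein of axons and of the myelin border, read 8.03, 7.99 and 8.17 at PND7 and 8.85 and 8.89 at PND14, a rise of 0.81 ± 0.117 (adjusted p = 2.44e-05, limma). Unc5b, a netrin receptor, read 7.25, 7.33 and 7.09 and then 7.90 and 7.78, a rise of 0.62 ± 0.127. Both separated the ages fully. The slit receptor Robo1 went from 7.31, 7.18 and 7.25 to 6.98 and 6.85 and fell (change -0.34 ± 0.1, adjusted p = 0.0137, limma). Without the 4 arrays of high Xist, which leaves 1 undosed cerebellar array at PND14 that is assumed to vary like the other groups, 7 of the 14 calls stood: both Epha4 probe sets, Sema4d, Plxnb1, Cntn1, Efna5 and Plxnb2. Of the calls that did not stand, 1 was no longer tested after those arrays were removed. The share of all probe sets called under that setting is not given. Ephb4 was not called with dam as a block (adjusted p = 0.0881, limma).

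In the dosed cerebellum, measured on other litters, 6 members rose and 11 fell, 15% and 27.5% of those tested, against 16% and 18.8% of all probe sets. Of the 40, 7 reached the filter level at 1 age only, and without the filter 20 of 64 were called (31.2%, against 24.2%). Of the 14 probe sets called in undosed pups, 13 were called here in the same direction, which is 92.9% of the undosed and 76.5% of the dosed calls. The matching share over all probe sets is not given, here or for the shared lists below. The agreement may therefore not be particular to the members. Epha4 (1375729_at) read 8.60, 8.57 and 8.36 at PND7 and 7.23, 7.46 and 7.49 at PND14, a change of -1.12 ± 0.115 (adjusted p = 2.53e-07, limma). Plxnb1 read 9.29, 9.29 and 9.21 and then 8.55, 9.11 and 8.61, with the pup of dam 15 above the other two. Its change was -0.51 ± 0.0978 (adjusted p = 0.000347, limma). Sema4d went from 6.52, 6.23 and 6.19 to 7.88, 7.30 and 7.67, a rise of 1.31 ± 0.184. Sema4f, Slit3, Plxnc1 and Plxna3 (1377077_at) were called in dosed and not in undosed pups, and Plxna1 in undosed and not in dosed; the test of the difference in age change called 0 members and 0% of all probe sets, with 4 members (10%) at an unadjusted p under 0.05 against 6.73% of all.

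Levels of cell type markers in the cerebellum moved over the same week. The mean log2 level of the dividing-precursor markers was 9.66 to 9.75 in undosed cerebellum at PND7 and 8.65 to 8.81 at PND14, and 9 of 9 measured markers fell. Mean levels of granule cell markers went from 9.62 to 9.68 up to 10.6 on both arrays, Purkinje cell markers from 9.65 to 9.70 up to 10.8 to 10.9, and oligodendrocyte markers from 8.43 to 8.92 up to 9.72 to 9.82. Some single markers fell in group mean: Barhl1 (granule cell) from 9.33 to 8.72 and Lhx1 (Purkinje cell) from 8.09 to 7.53. Pdgfra and Cspg4 (oligodendrocyte) fell from 9.36 to 8.79 and from 6.86 to 6.44. The other measured markers of these lists had higher or nearly level means at PND14. The part of these markers in the members' changes was not tested.

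**Figure D2:**
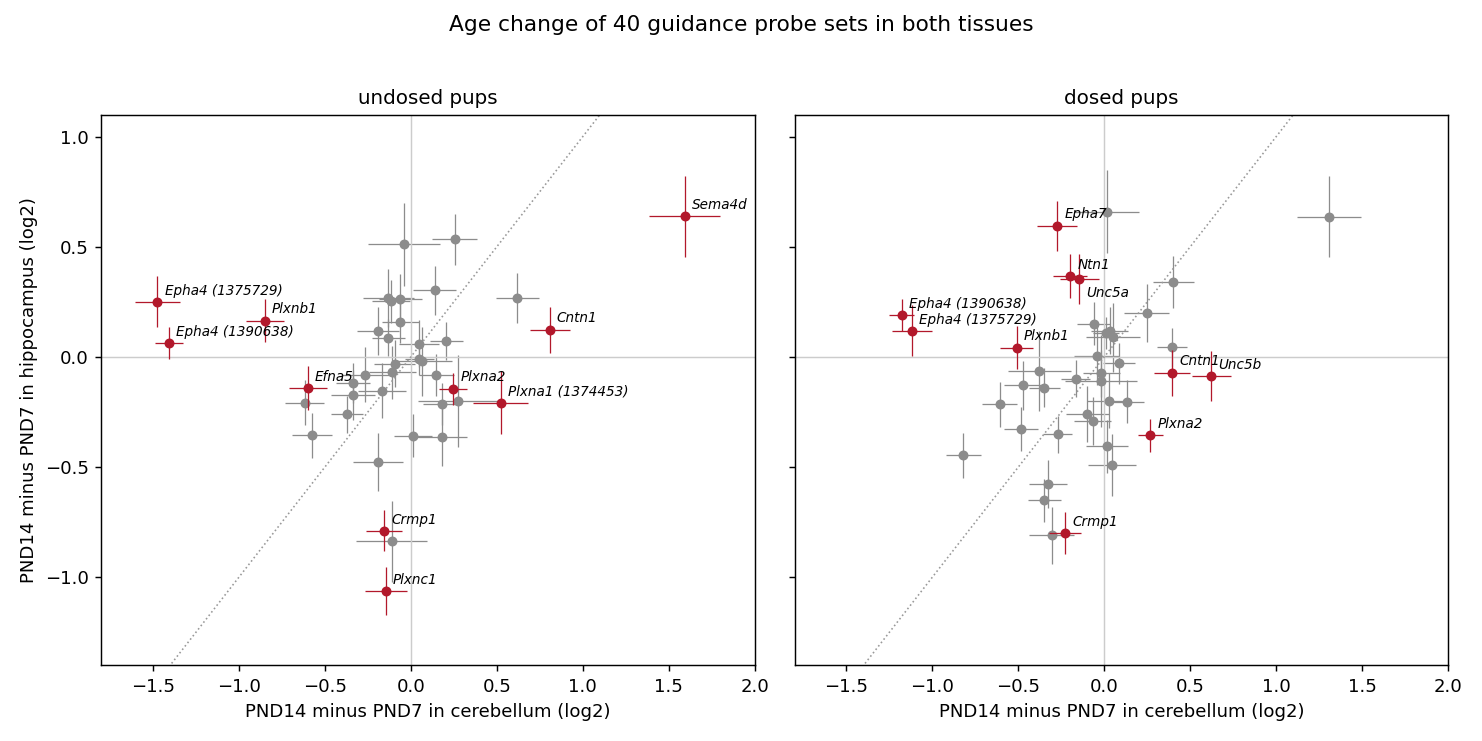
Log2 change from PND7 to PND14 in cerebellum (horizontal) and in hippocampus (vertical) of the 40 member probe sets tested, for undosed and dosed pups, with SE bars; red points with names are those whose change differed between the tissues, and the dotted line marks equal change. In undosed pups Epha4 lies at -1.47 and -1.41 in cerebellum with 0.25 and 0.06 in hippocampus, and Plxnc1 at -1.06 in hippocampus.

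In the undosed hippocampus the members that fell with age were the plexin Plxnc1, the semaphorin mediator Crmp1, both probe sets of Nrp1 and of Plxna3, Plxnd1 and the secreted ligand Sema3c. Slit3, Sema4d, Sema5a and the netrin receptor Unc5a rose. In counts, 4 of 40 rose (10%) and 8 fell (20%), against 14.9% and 16.9% of all probe sets. Of the 40, 3 reached the filter level at 1 age only, and without the filter 14 of 64 were called (21.9%, against 22% of all). The median size of the change was 0.20 for the members and 0.17 for all. The ages did not overlap for 23 of the 40, and the share over all probe sets is not given. Of the 14 cerebellar and 12 hippocampal calls, 3 probe sets were shared, 21.4% and 25% of the lists.

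Plxnc1, the receptor of Sema7a, read 8.37, 8.35 and 8.21 in undosed hippocampus at PND7 and 7.26, 7.32 and 7.15 at PND14. The ages were far apart, with a change of -1.06 ± 0.109 (adjusted p = 5.67e-07, limma). Crmp1 read 11.67, 11.84 and 11.78 and then 11.04, 10.96 and 10.92, a change of -0.79 ± 0.0936 (adjusted p = 2.72e-06, limma). In undosed cerebellum Crmp1 read 11.17, 11.03 and 11.07 and then 10.96 and 10.91, and its change there was not called.

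Nrp1, the co-receptor of secreted semaphorins, fell on both probe sets. Probe set 1370570_at went from 9.83, 9.79 and 9.78 to 9.48, 9.38 and 9.47 (change -0.36 ± 0.102), and 1373577_at from 8.74, 8.66 and 8.00 to 7.78, 7.86 and 7.25 (change -0.84 ± 0.183). On 1373577_at the pups of dam 13 were the lowest at both ages. Its ligand Sema3c went from 9.99, 9.54 and 9.50 to 9.37, 9.31 and 9.26, a change of -0.36 ± 0.133 (adjusted p = 0.0427, limma). Plxna3 (1376139_at), a signalling partner of neuropilins, went from 9.97, 10.04 and 10.15 to 9.68, 9.39 and 9.65, a change of -0.48 ± 0.131. Plxnd1 went from 7.52, 7.56 and 7.64 to 7.26, 7.32 and 7.36, a change of -0.26 ± 0.085.

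Slit3, a secreted ligand of the robos, read 6.85, 6.92 and 6.76 at PND7 and 7.60, 7.35 and 7.18 at PND14 (change 0.53 ± 0.117, adjusted p = 0.00151, limma). Sema4d went from 6.95, 6.98 and 6.85 to 7.34, 7.78 and 7.58 (change 0.64 ± 0.184). Both kept the ages apart. Sema5a (1390437_at), a transmembrane semaphorin, read 8.25, 7.82 and 7.57 and then 8.22, 8.71 and 8.24, so its groups overlapped, with a change of 0.51 ± 0.189 (adjusted p = 0.0439, limma). Unc5a went from 8.20, 8.07 and 7.98 to 8.39, 8.36 and 8.40, a change of 0.30 ± 0.112 (adjusted p = 0.0456, limma), and was not called with dam as a block (adjusted p = 0.0597, limma). Without the 4 arrays of high Xist 6 of the 12 calls stood: Plxnc1, Crmp1, both Nrp1 probe sets, Sema4d and Plxna3 (1377077_at). Without the undosed PND14 array of dam 7 there were 7 calls. The share of all probe sets called under these settings is not given.

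In the dosed hippocampus 6 members rose (15%) and 10 fell (25%), against 14.2% and 14.2% of all probe sets. Of the 40, 4 reached the filter level at 1 age only, and without the filter 20 of 64 were called (31.2%, against 20%). With the dosed cerebellum 7 calls were shared in the same direction, 41.2% of the 17 cerebellar and 43.8% of the 16 hippocampal calls, and 1, Plxna2, was opposite. Of the undosed calls, 9 were shared, 75% of the 12 undosed and 56.2% of the 16 dosed calls. Crmp1 read 11.69, 11.72 and 12.08 at PND7 and 10.91, 11.20 and 10.98 at PND14, a change of -0.80 ± 0.0936 (adjusted p = 3.52e-06, limma). Plxnc1 read 8.03, 8.06 and 7.99 and then 7.25, 7.76 and 7.35, the pup of dam 15 being the highest at PND14, and its change was -0.58 ± 0.109. Nrp1 and Sema3c were called in undosed and not in dosed pups; Ntn1, Epha7, Plxnb2, Plxna2, Plxna1, Efna5 and Sema6c were called in dosed and not in undosed pups. The test of that difference called 0 members against 0.136% of all probe sets, with 7 members (17.5%) at an unadjusted p under 0.05 against 14.2% of all. Without the dosed PND7 array of dam 12 the dosed count was 9.

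Markers moved in the hippocampus too. The mean level of 12 meningeal and fibroblast markers was 8.94 to 9.30 on undosed arrays at PND7 and 7.92 to 8.36 at PND14, and 11 of 12 fell; in dosed hippocampus, where the PND7 arrays read 8.10 to 8.64, 3 of 12 fell. Oligodendrocyte markers went from 7.82 to 7.99 up to 9.37 to 9.54 in undosed pups, with 7 of 10 called higher. Of 9 precursor markers 5 were called lower, and the means of the others were lower too. Their part in the members' changes was not tested.

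The age changes of several members differed between the tissues by a direct test. It called 10 of 40 member probe sets (25%) in undosed pups, where 18.3% of all probe sets were called, and 10 (25%) in dosed pups, where 12.9% were. Counted without the filter, 17.2% of the 64 members were called in each dosing group. The unfiltered share of all probe sets is not given here. Fitting only the arrays compared gave 18 in undosed and 4 in dosed pups, and adding the left-out array gave 6 in dosed pups. The shares of all probe sets under these settings are not given, so the shifts may not be particular to the members. The lists shared 6 probe sets, 60% of each: both Epha4 probe sets, Plxnb1, Crmp1, Cntn1 and Plxna2. Epha4 (1375729_at), which read 10.78, 10.96 and 10.92 in undosed hippocampus at PND7, with 11.15, 11.08 and 11.19 a week on, differed by -1.72 ± 0.173 (cerebellum minus hippocampus, adjusted p = 1.3e-06, limma). Plxnb1, at 8.97, 8.99 and 8.93 and then 9.19, 9.08 and 9.12 in undosed hippocampus, differed by -1.01 ± 0.147 (adjusted p = 8.13e-05, limma). Plxnc1, at 8.14, 8.01 and 8.03 and then 7.97 and 7.85 in undosed cerebellum, fell further in hippocampus, by a difference of 0.92 ± 0.164. Crmp1, Cntn1 and Sema4d differed by 0.63, 0.68 and 0.95. Without the 4 arrays of high Xist, 4 of the 10 undosed calls stood: both Epha4 probe sets, Plxnb1 and Plxnc1. Without the undosed cerebellar PND14 array of dam 7 there were 6 calls. In dosed pups Epha7 (-0.87), Unc5b (0.71), Ntn1 (-0.56) and Unc5a (-0.50) were called as well. Epha7 passed the filter on hippocampal arrays at PND14 alone, so the filter favoured its difference. The other Epha7 and Ntn1 probe sets did not pass and did not show such differences in their dosed means. From PND7 to PND14, Epha7 1369096_at went from 5.64 to 5.66 in cerebellum and 6.05 to 5.95 in hippocampus. Ntn1 1398269_at went from 6.41 to 6.26 and from 6.26 to 6.12, and 1368880_at from 6.13 to 6.12 and from 6.01 to 5.85. With dam as a block Unc5a (adjusted p = 0.057, limma) and Cntn1 (adjusted p = 0.0507, limma) were not called in dosed pups.

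Of the members called for a tissue difference of the age change in undosed pups, the start regions of the 5 with the largest differences among those in the RefSeq table (rat GRCr8) are shown so that a reader can see the DNA upstream of these genes. Of the 51 member genes 41 had an entry; Epha4, Ntn1, Plxna1, Robo1, Sema3a, Sema3b, Sema4d, Sema5a, Slit1 and Slit2 did not. Each run is the 250 bases before the gene start, 5′ to 3′ on the gene's strand. Capitals mark GCGTG, the core letters of the Ah receptor element (CACGC when it lies on the other strand), and AGGTCA, a nuclear receptor site (TGACCT on the other strand). The positions are Plxnb1 chr8:118622911-118623160 (plus strand), Efna5 chr9:110042188-110042437 (minus strand), Cntn1 chr7:125252060-125252309 (plus strand), Plxnc1 chr7:31430606-31430855 (minus strand) and Crmp1 chr14:77780917-77781166 (minus strand).
Plxnb1: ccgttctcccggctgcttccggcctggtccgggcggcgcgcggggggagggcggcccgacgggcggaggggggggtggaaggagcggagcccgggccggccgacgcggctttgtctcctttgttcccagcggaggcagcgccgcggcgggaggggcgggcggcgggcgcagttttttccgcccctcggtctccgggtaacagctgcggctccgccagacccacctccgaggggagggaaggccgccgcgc
Efna5: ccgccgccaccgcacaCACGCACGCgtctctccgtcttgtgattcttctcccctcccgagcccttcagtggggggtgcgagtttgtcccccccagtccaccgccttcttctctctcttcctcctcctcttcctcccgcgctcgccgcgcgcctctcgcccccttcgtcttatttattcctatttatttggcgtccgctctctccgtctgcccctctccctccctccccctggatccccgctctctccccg
Cntn1: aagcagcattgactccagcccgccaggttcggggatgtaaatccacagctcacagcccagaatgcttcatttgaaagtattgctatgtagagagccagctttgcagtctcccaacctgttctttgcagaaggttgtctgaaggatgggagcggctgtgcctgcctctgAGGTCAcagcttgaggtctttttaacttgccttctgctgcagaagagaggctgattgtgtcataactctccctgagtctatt
Plxnc1: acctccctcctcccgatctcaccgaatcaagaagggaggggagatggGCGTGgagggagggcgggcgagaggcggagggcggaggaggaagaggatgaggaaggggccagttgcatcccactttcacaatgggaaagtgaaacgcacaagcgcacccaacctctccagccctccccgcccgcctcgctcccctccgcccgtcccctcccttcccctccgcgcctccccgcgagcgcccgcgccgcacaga
Crmp1: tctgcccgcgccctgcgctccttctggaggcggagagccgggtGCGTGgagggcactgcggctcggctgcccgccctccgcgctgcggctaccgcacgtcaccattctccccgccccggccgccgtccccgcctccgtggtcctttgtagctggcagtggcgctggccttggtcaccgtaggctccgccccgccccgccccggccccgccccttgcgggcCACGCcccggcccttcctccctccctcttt
Efna5 and Crmp1 each hold GCGTG or its complement at 2 places, which overlap in Efna5, and Plxnc1 holds it at 1. Cntn1 holds AGGTCA at 1 place, and neither motif's letters occur in the Plxnb1 window. The GC share was 78% in Plxnb1, 76.4% in Crmp1, 68.8% in Plxnc1, 64.8% in Efna5 and 50% in Cntn1, against a median of 51.2% over all promoters in the table. GCGTG on either strand was found in 14 of 41 member promoters (34.1%) and in 8666 of 33469 promoters of the same length (25.9%), and AGGTCA in 1 of 41 (2.44%) and in 4707 (14.1%). A match describes the letters and shows no binding.

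Cerebellum and hippocampus differed in most members, and many of the differences were large. Counted without the filter, 43 of all 64 member probe sets differed between the tissues in undosed pups at PND7 (14 higher in cerebellum, 29 lower; 67.2%), where 36.4% of all probe sets did. At PND14 the count was 40 of 64 (15 higher, 25 lower; 62.5%) against 41.6%. Among those that passed the filter, cerebellum was higher in 9 and lower in 22 of 40 at PND7 (22.5% and 55%, against 26.4% and 24.3% of all probe sets) and higher in 11 and lower in 21 at PND14 (27.5% and 52.5%, against 27.5% and 26.6%). Of those 40, 10 at PND7 and 9 at PND14 reached the filter level in 1 tissue only, so the filter favoured a difference for them. The median size of the difference was 0.68 for the members and 0.25 for all probe sets at PND7, and 0.67 and 0.30 at PND14. The tissues did not overlap for 35 of the 40 at each age, and the share over all probe sets is not given.

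Higher in hippocampus were receptors and ligands of several families. Epha4 (1375729_at) read 8.71, 8.46 and 8.67 in undosed cerebellum and 10.78, 10.96 and 10.92 in hippocampus at PND7, a difference of -2.28 ± 0.115. At PND14 it read 7.19 and 7.09 against 11.15, 11.08 and 11.19, a difference of -4.00 ± 0.129 (adjusted p = 1.28e-15, limma) or 16.0-fold. The second Epha4 probe set differed by -2.54 and -4.01; its cerebellar levels at PND14, 6.46 and 6.53, lie below the filter level. Sema3c, a secreted semaphorin, read 6.86, 6.93 and 7.02 against 9.99, 9.54 and 9.50 at PND7, a difference of -2.74 ± 0.133. Its co-receptor Nrp1 (1370570_at), given above, differed by -2.17 ± 0.102 at PND7 and -2.39 ± 0.114 at PND14. Epha5, a receptor of A-class ephrins, read 5.96, 6.17 and 6.02 against 8.34, 8.42 and 8.57, a difference of -2.40 ± 0.156, and its cerebellar arrays stayed below the filter level at both ages.

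Other members higher in hippocampus differed by less. Unc5a read 6.64, 6.87 and 6.87 in cerebellum and 8.20, 8.07 and 7.98 in hippocampus at PND7, a difference of -1.29 ± 0.112. Plxna1 (1374453_at) read 8.68, 8.69 and 8.60 against 10.06, 10.18 and 10.18 at PND7, and its difference went from -1.49 ± 0.142 at PND7 to -0.76 ± 0.159 at PND14. Each of these kept the tissues fully apart. The other Plxna1 probe set, 1375482_at, had nearly equal undosed means at PND7, 6.80 in cerebellum and 6.85 in hippocampus. Sema5a (1390437_at) differed by -1.26 at PND7 and -1.81 at PND14, Slit3 by -0.89 and -1.17, Epha7 by -0.83 and -1.15, and Sema6b by -0.71 and -1.10. The other Sema5a probe set, 1376539_at, did not pass the filter. Its undosed means at PND7 were 4.46 in cerebellum and 4.42 in hippocampus. Slit3 and Epha7 passed the filter on hippocampal arrays alone, 6 for Slit3 and 5 for Epha7, the latter all at PND14, so the filter favoured their excess in hippocampus and their rise with age there.

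Among the members higher in cerebellum were Cntn2, Plxnb2, Ntn1, Sema6a and Unc5b. The ephrin Efna5 was higher there too, by 0.82 at PND7 and 0.36 at PND14. Cntn2, the axonal adhesion protein TAG-1 carried by granule cell axons, read 8.35, 8.26 and 8.21 in cerebellum and 6.35, 5.95 and 5.93 in hippocampus at PND7, a difference of 2.19 ± 0.209, and 8.69 and 8.40 against 5.64, 5.91 and 6.09 at PND14, a difference of 2.67 ± 0.234. Its hippocampal levels lay below the filter level. Ntn1 (1376128_at), the secreted cue read by Dcc and the Unc5 receptors, read 8.15, 8.39 and 8.34 against 6.66, 6.78 and 6.70 at PND7, a difference of 1.58 ± 0.0988. Plxnb2 read 11.62, 11.51 and 11.33 against 9.88, 9.88 and 9.84, a difference of 1.62 ± 0.104. Sema6a (1376601_at), a transmembrane semaphorin, read 9.72, 9.66 and 9.68 against 8.26, 8.24 and 8.35, a difference of 1.40 ± 0.126. The 2 measured Unc5 netrin receptors were thus on opposite sides, with Unc5b higher in cerebellum by 0.69 ± 0.113 at PND7 and 1.04 ± 0.127 at PND14.

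Between the ages, 25 probe sets kept the same direction of tissue difference in undosed pups and 1, Plxnb1, turned. Plxnb1 was 0.47 ± 0.0978 higher in cerebellum at PND7 (adjusted p = 0.000404, limma) and 0.54 ± 0.109 lower at PND14, a difference of -0.54 (adjusted p = 0.000269, limma). Plxnc1 was not called at PND7 (-0.25) and was higher in cerebellum at PND14 (0.67 ± 0.122). Crmp1 and Sema4d were lower in cerebellum at PND7 (-0.67 and -0.82) and not called at PND14 (-0.04 and 0.13). The contactins Cntn1 and Cntn6 were called at PND14, at 0.53 and 0.61 higher in cerebellum, and not at PND7. With the left-out array added, Plxnb2 (-0.71) and Plxnc1 (-0.39) had the opposite sign at PND14 and were not called. Over both ages and dosing groups, granule cell markers read 9.59 to 10.6 in cerebellum and 7.97 to 8.14 in hippocampus. Precursor markers read 8.05 to 9.78 and 7.36 to 8.12. The part of these markers in the members' differences was not tested.

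In dosed pups the tissue difference had the same outline. At PND7, 9 members were higher and 25 lower in cerebellum (22.5% and 62.5%), against 29.1% and 30% of all probe sets, and at PND14, 11 and 18 (27.5% and 45%) against 27.4% and 25.9%. Of these 40, 10 and 9 reached the filter level in 1 tissue only. Counted without the filter, 16 of 64 were higher and 34 lower at PND7 (78.1%, against 47.7% of all probe sets), and 15 and 22 at PND14 (57.8% against 40.3%). Epha4 (1375729_at) differed by -2.48 ± 0.115 at PND7 and -3.72 ± 0.115 at PND14, Cntn2 by 2.24 and 2.33, and Plxnb1 by -0.37 ± 0.0978 at PND14. One cerebellar Cntn2 array at PND14, the pup of dam 12, read 7.62 where the others read 8.58 and 8.76. Without the 4 arrays of high Xist, 27 of 31 undosed calls stood at PND7 and 26 of 32 at PND14. That fit leaves 1 undosed cerebellar array at PND14. At each age 1 of the calls that did not stand was no longer tested. The share of all probe sets called under that setting is not given. With dam as a block Plxna1 (1375482_at, adjusted p = 0.0714, limma) and Unc5cl (adjusted p = 0.0897, limma) were not called at PND14 in undosed pups.

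**Figure D3:**
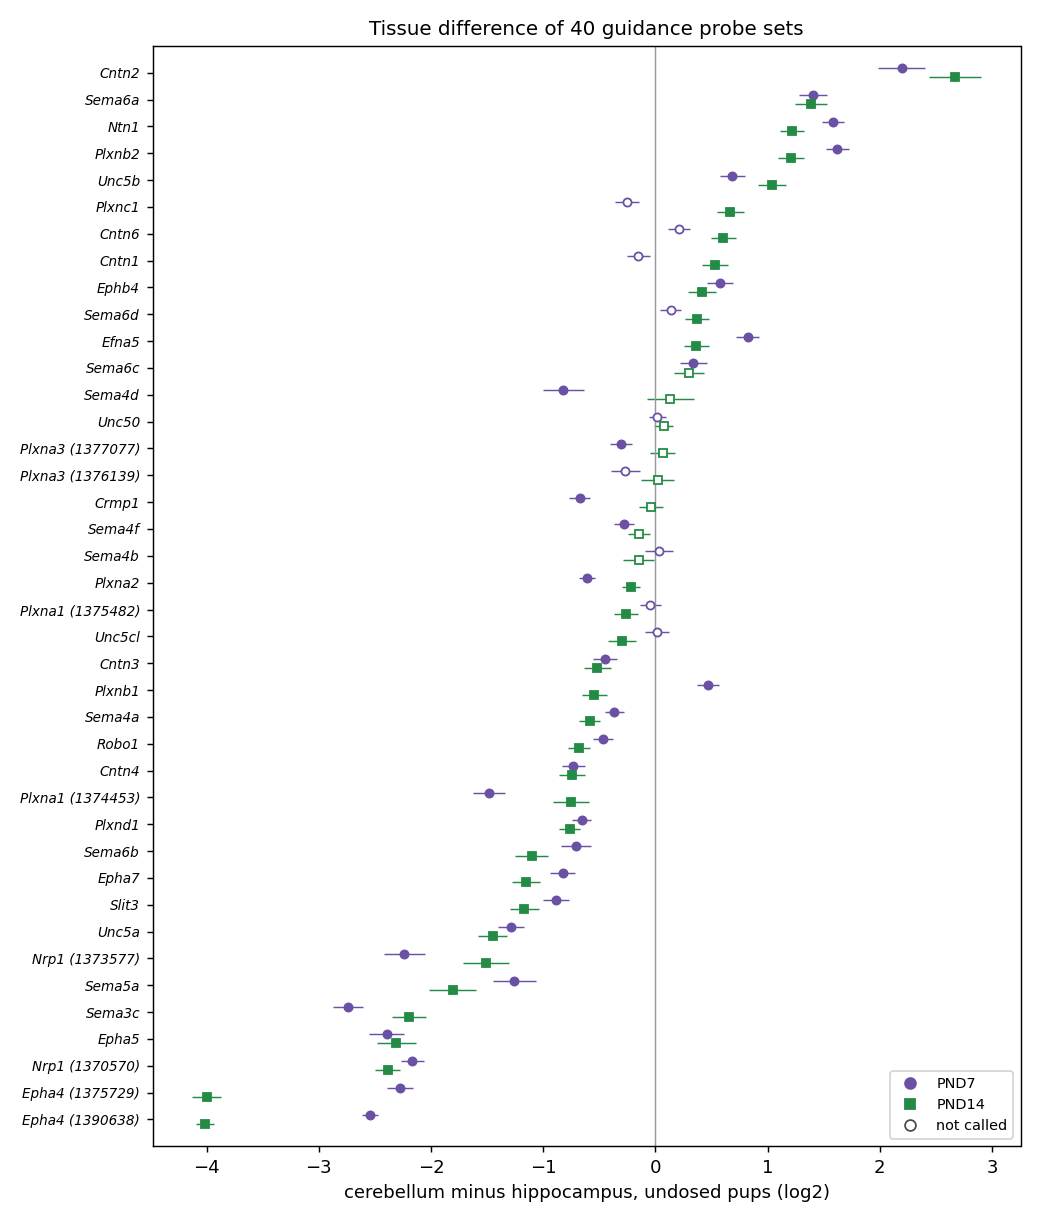
Log2 difference between cerebellum and hippocampus in undosed pups of each of the 40 member probe sets tested, at PND7 (purple circles) and PND14 (green squares), with SE bars; open symbols were not called. Epha4 (-2.28 and -4.00 for 1375729_at) and Sema3c (-2.74 and -2.20) lie far on the hippocampal side, Cntn2 (2.19 and 2.67) on the cerebellar side, and Plxnb1 (0.47 and -0.54) lies on both sides of zero.

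Dosing with Aroclor 1254 called no member in either tissue at either age. In cerebellum at PND7, in cerebellum at PND14 and in hippocampus at PND14, 0 of 40 members were called, and 0% of all probe sets were. In hippocampus at PND7, 0 members were called against 0.6% of all probe sets. At an unadjusted p under 0.05 there were 2 members in cerebellum at PND7 (5%, against 5.26% of all probe sets), 6 in cerebellum at PND14 (15% against 4.87%), 7 in hippocampus at PND7 (17.5% against 17%) and 4 in hippocampus at PND14 (10% against 3.79%). The median size of the dosing difference was between 0.077 and 0.107 for the members and between 0.069 and 0.101 for all probe sets. The counts of called members stayed 0 without the 4 arrays of high Xist.

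The hippocampus at PND7 held the member nearest the threshold, the contactin Cntn6. It read 7.19, 7.11 and 7.18 in undosed and 6.82, 6.77 and 6.78 in dosed pups, without overlap, a difference of -0.37 ± 0.097 (adjusted p = 0.0713, limma). In this comparison 9 of the 40 members did not overlap, and the share over all probe sets is not given. Nrp1 (1373577_at) read 8.74, 8.66 and 8.00 against 7.98, 7.49 and 8.15, so the groups overlapped, with the undosed array of dam 13, one of those of high Xist, at 8.00 (difference -0.59 ± 0.183, adjusted p = 0.117, limma). The other Nrp1 probe set read 9.83, 9.79 and 9.78 against 9.74, 9.46 and 9.71. Unc5b read 6.57, 6.48 and 6.57 against 6.70, 7.15 and 6.68, a difference of 0.31 with an adjusted p of 0.172 (limma), where the pup of dam 15 stood above the rest. Unc5cl, which is not a netrin receptor, read 8.44, 8.74 and 8.83 against 9.12, 9.12 and 8.72.

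Some dosing calls appeared only under other settings. With no filter, Ntng1, a membrane-anchored netrin, was called lower in dosed hippocampus at PND7: it read 6.22, 5.65 and 6.40 in undosed and 5.12, 5.17 and 5.71 in dosed pups (difference -0.75 ± 0.16, adjusted p = 0.0323, limma), where 1.11% of all probe sets were called. All 6 levels lie under the filter level of 6.89. Without the dosed hippocampal array of dam 18 at PND7, Plxna1 (1375482_at) and Unc5cl were called higher with dosing, by 0.38 (adjusted p = 0.0286, limma) and 0.45 (adjusted p = 0.0322, limma). Plxna1 (1375482_at) read 6.71, 6.91 and 6.92 in undosed and 7.24, 7.21 and 6.80 in dosed pups, the array of dam 18 being the 6.80. In the same tissue and age the meningeal markers read 8.94 to 9.30 in undosed and 8.10 to 8.64 in dosed pups, with 2 of 12 called lower, and their part in these values was not tested.

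In cerebellum at PND7, Cntn1 read 8.03, 7.99 and 8.17 in undosed and 8.39, 8.28 and 8.34 in dosed pups, a difference of 0.27 (adjusted p = 0.904, limma). Plxnb1 read 9.44, 9.45 and 9.42 against 9.29, 9.29 and 9.21, and Plxna1 (1375482_at) 6.91, 6.70 and 6.80 against 6.55, 6.64 and 6.59. Nrp1 (1370570_at) read 7.51, 7.54 and 7.85 against 7.57, 7.47 and 7.41, and its groups overlapped. In cerebellum at PND14, Sema3c read 7.13 and 7.11 against 6.99, 6.55 and 6.70, a difference of -0.37 (adjusted p = 0.939, limma), and Unc5a read 6.93 and 6.94 against 6.38, 6.77 and 6.77. Plxna3 (1377077_at) read 9.24 and 9.08 against 8.93, 8.81 and 8.99. The groups of these 3 members did not overlap, and in this comparison 8 of the 40 members did not. The share over all probe sets is not given. With 2 arrays against 3, lack of overlap alone shows no dosing difference. Plxna1 (1374453_at) in cerebellum at PND14 read 9.09 and 9.26 against 9.22, 8.29 and 8.91, so its difference of -0.37 rests mainly on the pup of dam 15. In hippocampus at PND14, Slit3 read 7.60, 7.35 and 7.18 against 7.22, 7.36 and 6.77, and Plxna3 (1376139_at) 9.68, 9.39 and 9.65 against 9.55, 9.19 and 9.06, and both overlapped. Plxnd1 read 7.26, 7.32 and 7.36 against 7.23, 7.12 and 7.01, and Sema4a, a transmembrane semaphorin, 8.67, 8.73 and 8.55 against 8.57, 8.24 and 8.52. The adjusted p was 0.966 for these 4 (limma).

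The dosing effect was also compared between the ages and between the tissues. Between tissues it called 0 members at PND7 and 0 at PND14, and 0% of all probe sets at each. The members with an unadjusted p under 0.05 numbered 7 at PND7 (17.5%, against 14.1% of all) and 1 at PND14 (2.5%, against 2.58%). The smallest adjusted p values were those of Plxnc1 for the age difference in hippocampus (0.49, adjusted p = 0.171, limma) and of Plxna1 (1375482_at) for the tissue difference at PND7 (-0.45, adjusted p = 0.173, limma).

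**Figure D4:**
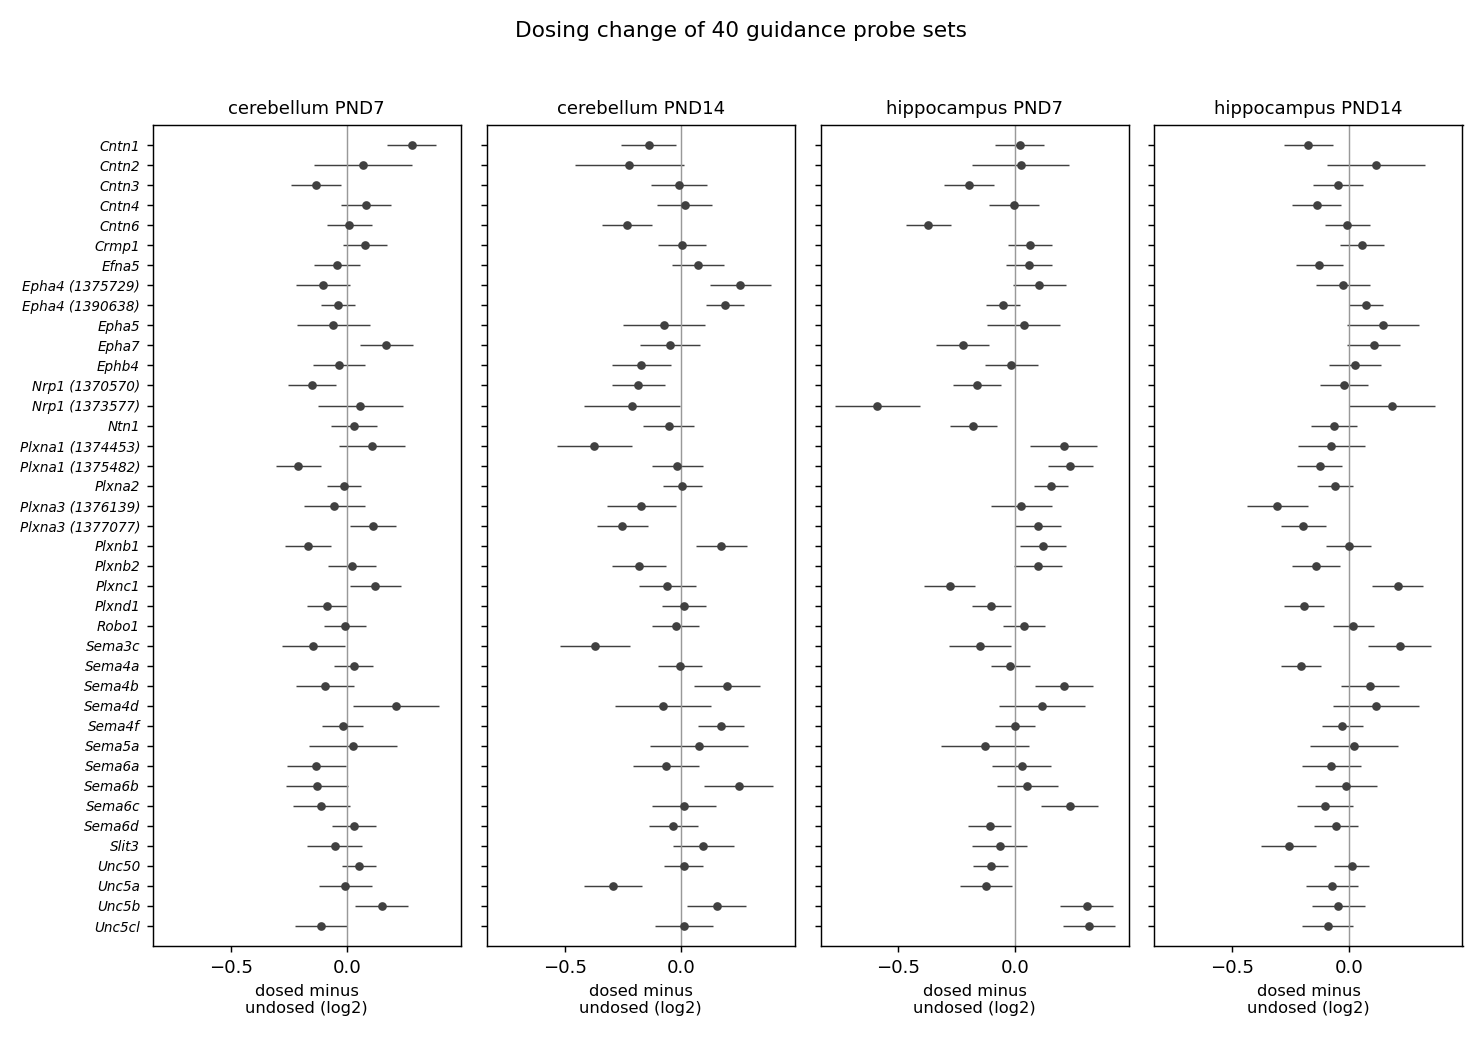
Log2 difference between dosed and undosed pups of each member probe set tested, for each tissue and age, 1 point per probe set with SE bars. The largest differences are 0.27, 0.37, 0.59 and 0.31 in size for cerebellum PND7, cerebellum PND14, hippocampus PND7 and hippocampus PND14, and none was called.

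Partners of the members were read from a separate list of 84 axon guidance genes (intracellular mediators, adhesion proteins and other cues), of which 68 were on the array and 61 were tested. In undosed cerebellum 13 rose (21.3%) and 15 fell (24.6%) with age, against 15.1% and 17.3% of all probe sets. In undosed hippocampus 8 rose (13.1%) and 23 fell (37.7%), against 14.9% and 16.9%. The 61 are 1 probe set per gene, the one of highest mean, whereas the shares of all count every tested probe set. The shares are therefore not like for like. Dosing called 0 of the 61. Mag, a myelin protein that restrains axon growth, rose by 2.25 in cerebellum and 2.73 in hippocampus. Chn2, a Rac regulator, rose by 1.56 in cerebellum, and its relative Chn1, which acts downstream of Epha4, rose by 1.47 in hippocampus. Dpysl5 and Dpysl3, relatives of Crmp1, fell in both tissues, Dpysl5 by 1.02 in cerebellum and 0.97 in hippocampus and Dpysl3 by 0.71 and 1.20. The chemokine receptor Cxcr4 fell by 0.95 and 0.93, and its ligand Cxcl12 by 0.72 in cerebellum. Neo1, the netrin receptor neogenin, fell by 0.70 in hippocampus.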

How the data were processed

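Total RNA of 24 cerebellum and hippocampus samples was hybridised to an Affymetrix rat expression array, 1 array per sample. The authors deposited 1 value per probe set and array, which is on a log2 scale by its range; the software that summarised the probes to these log2 values was not given in the sources used here. The 57 control probe sets were removed from 15923 and the 23 arrays used were quantile normalized. Those that exceeded an array's 40th percentile on 3 or more arrays (10330) were tested in limma 3.58.1 (R 4.3.3) with 1 mean per group and a shared spread. P-values were adjusted by Benjamini-Hochberg over all tested probe sets in each of 18 comparisons, and a call needs an adjusted p under 0.05. The fit was tested on simulated data. Where a gene has several probe sets, the one of highest mean is described first. Disagreements are named for some genes and comparisons only. Second probe sets that did not pass the filter were not tested in the main fit. Members were chosen for values per array as the called ones with the 8 largest changes in each direction, and for dosing those with the 4 smallest p in each comparison; values of Robo1 and Crmp1 in undosed cerebellum and those of dosed pups were added after they were seen. From the partner list the genes named were taken from the called ones with the 4 largest changes in each direction. Not all of those that rose are named, and fewer rises than falls are. The members and lists were chosen with earlier results of these data known.

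Dam numbers mark shared litters, per the labels. Deviations of the cerebellum and hippocampus arrays of 1 dam and age correlated at a median r of 0.278 (9 of 11 pairs over 0.1). Those of the same dam and tissue at both ages correlated at 0.01 (3 of 11). The main fit had no dam term, so its tissue tests ignore the pairing of the 2 tissues within a dam and age. A fit with dam as a block was an alternative. That block joins both ages of a dam, so it does not model the pairing within 1 age. Each dosing group holds 3 litters, which limits the precision. Other alternatives were no filter, a 60th percentile filter, the values as deposited, the compared arrays alone, all 24 arrays, the arrays of high Xist left out, and each array left out in turn.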

Additional observations from a re-analysis of the deposited data

Results flagged for a closer look

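The age change differed between the tissues, by the test of that difference, for 10 member probe sets in undosed and 10 in dosed pups. Values are the log2 change from PND7 to PND14 in cerebellum minus that in hippocampus. Below 0 in undosed pups were Epha4 (-1.47 for 1390638_at and -1.72 for 1375729_at), Plxnb1 (-1.01) and Efna5 (-0.46). Above 0 in undosed pups were Sema4d (0.95), Plxnc1 (0.92), Plxna1 (1374453_at, 0.73), Cntn1 (0.68), Crmp1 (0.63) and Plxna2 (0.39). Below 0 in dosed pups were Epha4 (-1.37 for 1390638_at and -1.24 for 1375729_at), Epha7 (-0.87), Ntn1 (-0.56), Plxnb1 (-0.55) and Unc5a (-0.50). Above 0 in dosed pups were Unc5b (0.71), Plxna2 (0.62), Crmp1 (0.57) and Cntn1 (0.47).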

How the results depend on the processing

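Counts are of member probe sets called of 40 and the cause of each shift was not tested. The share of all probe sets called under each setting is not given here. These counts therefore do not show whether a shift is particular to the members. With no filter 1 of 64 was called for dosing in hippocampus at PND7. A 60th percentile filter, which tests fewer probe sets, gave 9 for age in undosed and 11 in dosed cerebellum. Without the 4 arrays of high Xist the counts were 7 for age in undosed cerebellum, 6 in undosed hippocampus and 4 for the tissue difference of the age change in undosed pups. With all 24 arrays they were 9 for age in dosed cerebellum, 4 in undosed and 8 in dosed hippocampus, and 6 for the tissue difference of the age change in dosed pups. Fitting only the arrays compared gave 18 for that difference in undosed and 4 in dosed pups. Leaving out 1 array at a time gave 7 to 11 for age in undosed hippocampus (7 without dam 7 at PND14), 9 to 17 in dosed hippocampus (9 without dam 12 at PND7), 10 to 14 in undosed cerebellum, 6 to 11 for the tissue difference of the age change in undosed pups (6 without the cerebellar array of dam 7 at PND14), 0 to 2 for dosing in hippocampus at PND7 and 0 to 1 for the tissue difference of the dosing effect at PND7 (both without dam 18 in dosed hippocampus). Where 1 of the 2 undosed cerebellar PND14 arrays was left out, the other was assumed to vary like the other groups. With all 24 arrays 3 values changed sign and were not called: Plxnb2 (-0.71) and Plxnc1 (-0.39) between tissues at PND14 in undosed pups, and Plxnc1 (-0.14) for the tissue difference of the age change. With dam as a replicate block the counts were 14 and 18 for age in cerebellum (undosed, dosed), 11 and 16 in hippocampus, 32 and 35 between tissues at PND7, 30 and 29 at PND14, 10 and 11 for the tissue difference of the age change and 0 for dosing, and no calls were lost other than those named above. The undosed cerebellum at PND14 has 2 arrays. Probe sets above 6.89 on fewer than 3 arrays were left out of the main fit and tested in the unfiltered fit. Members that passed could still lie under 6.89 in whole groups, as Epha5 did in cerebellum.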
